A study of Mus musculus with 14 samples.

Results

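Small leucine-rich proteoglycans (SLRPs) were examined as a family in heart tissue of FS6KD mice. The family was represented by 9 genes, Dcn, Bgn, Aspn, Lum, Fmod, Prelp, Omd, Ogn and Podn, which were found by symbol among the 42396 genes listed in both count tables. They were picked as a family because Fmod was lower in 1 of the experiments, the adeno-associated virus (AAV) experiment described below. The members were therefore selected on the AAV contrast, whose values are given here as a description with no test. The knockout experiment shares no library with it and was tested. The members and the gene lists used below were nevertheless chosen with earlier results of these data known. All 9 genes passed the filter on low values, above 1 CPM (reads scaled to library size) in at least 1 library, in both experiments.

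All 14 hearts came from female FS6KD mice: a gene trap lowers Ndufs6, the gene of an accessory subunit of complex I in the respiratory chain, mainly in the heart, on a mixed genetic background of C57BL/6J and another strain. The knockout experiment compared 4 Atf3+/+FS6KD with 4 Atf3-/-FS6KD hearts at 12 weeks. Atf3 encodes a stress-induced transcription factor, and the knockout allele is a CRISPR-Cas9 deletion from exon 2 to exon 4 made in FS6KD eggs, in mice bred by intercrossing founders. The AAV experiment compared 3 hearts labelled MyoAAV2-shCtrl with 3 labelled MyoAAV2-shAtf3, where a muscle-directed virus carried a short hairpin RNA against Atf3 or a control hairpin into neonatal FS6KD mice. The age of the AAV hearts at collection is not stated separately. The knockdown is called muscle-specific, whereas the RNA came from heart tissue with all its cell types. Columns of the AAV count table are named opposite to the GEO labels. Libraries are therefore named by label, as labelled shCtrl or labelled shAtf3, and each AAV direction is conditional on the labels.

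SLRPs are secreted proteins built from leucine-rich repeats, most of them carrying chondroitin, dermatan or keratan sulfate chains. They bind fibrillar collagen and set the width and spacing of its fibrils, and several also bind transforming growth factor β or cell surface receptors. In the heart they are made mainly by fibroblasts and the cells of valves and vessel walls, and they are known for their part in the organisation of scar and interstitial matrix.

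AAV libraries held 30085432 to 40534913 counts. Knockout libraries fell into a deeper class (replicates 3 and 4 of each genotype, 112904389 to 134920825 counts) and a shallower class (replicates 1 and 2, 33914931 to 42409691 counts). Cardiomyocyte markers were abundant in all libraries, and the atrial markers Myl4, Myl7, Sln and Bmp10 summed to between 1.95 and 3.22 CPM, so atrial markers were close to absent. The targeted gene Atf3 was at 6.35 to 25.7 CPM in Atf3+/+FS6KD and at 14.3 to 37.6 CPM in Atf3-/-FS6KD. It was at 10.1 to 14.1 CPM in libraries labelled shCtrl and 12.1 to 21.2 CPM in those labelled shAtf3. In neither experiment was the mean count lower in the targeted group. Counts are per gene and do not tell exons inside the deletion from those outside it, so they do not check the deletion.

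The knockout comparison asked whether SLRP transcripts differ when Atf3 is deleted in the FS6KD heart. Of the 9 members, 0 reached an adjusted p below 0.05 in edgeR, and the background was the same, since 0% of the 15592 genes tested were called. DESeq2 also called 0 members, beside 208 (1.33%) of all genes, and limma-trend called 0 members, beside 0% of all genes. Point estimates were above 0 for 8 of 9 members, Podn being the exception, against 50.2% of all genes tested. The members' median log2 fold change was 0.23, and that of all genes was 0.000536. Lum and Aspn were the 2 members with an unadjusted p below 0.05, beside 1575 genes (10.1%) in all. The groups overlapped for all 9 members, where 480 genes (3.08%) lay without overlap higher in Atf3-/-FS6KD.

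In the AAV experiment the point estimates lay below 0 in libraries labelled shAtf3 for 9 of 9 members, against 50.9% of all 15225 genes tested, with a median of -0.39 on the log2 scale. Groups did not overlap for 5 of 9 members, Fmod, Bgn, Aspn, Lum and Ogn, all lower in the libraries labelled shAtf3. Of all genes tested, 9.94% lay without overlap in that direction. Because this contrast chose the family, nothing is read from these counts. Whether the members differ between the experiments was not tested for the same reason, and their values are set side by side.

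**Figure D1:**
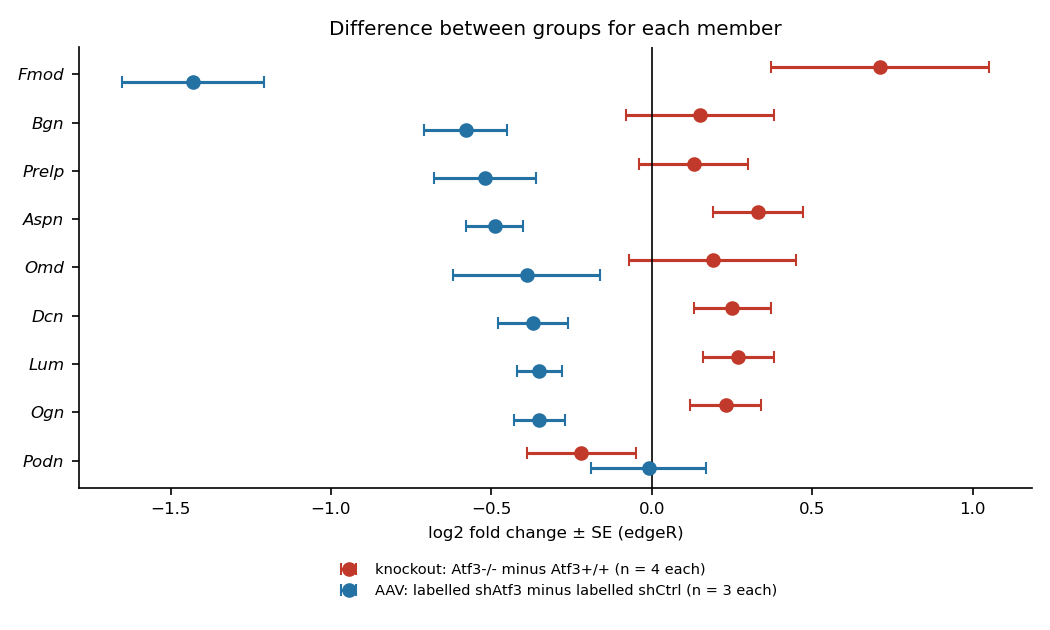
Log2 fold change of each member on the horizontal axis, with bars of ± 1 SE, for the knockout experiment (red, Atf3-/-FS6KD minus Atf3+/+FS6KD) and the AAV experiment (blue, labelled shAtf3 minus labelled shCtrl). Red points lie right of 0 for 8 members and left of it for Podn. Blue points run from -1.43 for Fmod to -0.01 for Podn.

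Fmod encodes fibromodulin, a keratan sulfate SLRP that binds collagen fibrils, restrains their lateral growth and directs their cross-linking. Its level in the AAV experiment was 28.5, 35.3 and 20 CPM (TMM-normalised, that is, scaled by a trimmed mean of log ratios between libraries, as for all CPM here) in the 3 libraries labelled shCtrl and 8.52, 13.4 and 9.23 CPM in those labelled shAtf3. Every library labelled shCtrl lay above every library labelled shAtf3. The means were 27.9 ± 7.64 and 10.4 ± 2.66 CPM (SD, n = 3), a 2.69-fold lower level with a log2 fold change of -1.43 (SE 0.22). These libraries held 1184, 1407 and 768 Fmod counts against 288, 420 and 272, so counting error was small beside the spread between hearts.

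In the knockout experiment Fmod was at 10.9, 7.41, 21.1 and 8.01 CPM in Atf3+/+FS6KD and at 18.2, 25.4, 21.9 and 13.1 CPM in Atf3-/-FS6KD. Atf3+/+FS6KD replicate 3 was as high as the knockout hearts, while the other 3 Atf3+/+FS6KD hearts lay below all of them. The means were 11.9 ± 6.37 and 19.6 ± 5.27 CPM (SD, n = 4), with a log2 fold change of 0.71 (SE 0.34, 95% confidence interval -0.05 to 1.47) and an edgeR adjusted p of 0.523. This did not pass the threshold. The value was 1.16 without Atf3+/+FS6KD replicate 3, 0.26 within the deeper libraries and 1.25 within the shallower ones, and passed the threshold in none of these fits.

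Fmod lies on the plus strand of chromosome 1 at 134037254 to 134048277 (GRCm38). Prelp, a second member, lies 116 kb away on the minus strand at 133910304 to 133921414. Both are on the chromosome that carries Atf3, 57.1 Mb and 57.2 Mb from it. The promoters of this linked pair are shown because Fmod chose the family and because the protein made from Atf3 is known to bind cyclic AMP response and AP-1 elements. Sequences are from RefSeq (GRCm38.p6), 5′ to 3′ on the strand of each gene, Fmod at chr1:134037004-134037303 and Prelp at chr1:133921352-133921651, with the 50 bases after the start in capitals.
Fmod: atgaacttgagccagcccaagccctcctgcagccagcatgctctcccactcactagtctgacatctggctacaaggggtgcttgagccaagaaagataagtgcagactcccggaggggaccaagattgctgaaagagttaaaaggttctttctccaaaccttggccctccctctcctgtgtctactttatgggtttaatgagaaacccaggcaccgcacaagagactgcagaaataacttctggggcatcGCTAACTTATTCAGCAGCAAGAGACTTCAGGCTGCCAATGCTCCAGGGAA
Prelp: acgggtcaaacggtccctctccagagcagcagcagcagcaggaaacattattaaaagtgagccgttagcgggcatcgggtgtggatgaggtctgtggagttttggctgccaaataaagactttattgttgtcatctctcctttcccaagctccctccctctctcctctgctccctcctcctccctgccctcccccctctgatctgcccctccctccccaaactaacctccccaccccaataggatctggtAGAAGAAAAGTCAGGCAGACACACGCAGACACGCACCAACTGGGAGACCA

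The cyclic AMP response element TGACGTCA and the AP-1 element TGANTCA were searched on both strands of these windows, which run from 250 bases before a start to 50 after it. Of the 9 members, 7 have such windows, 8 in all because Podn has 2. Neither element occurred in any of the 8, whereas TGACGTCA occurs in 1.79% and TGANTCA in 7.81% of 32851 mouse promoter windows. The absence says only that these letters are not in these windows.

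Among the class I members, Dcn encodes decorin, which coats collagen I fibrils and sequesters transforming growth factor β. Dcn was at 802, 846, 992 and 848 CPM in Atf3+/+FS6KD and at 905, 1300, 1070 and 890 CPM in Atf3-/-FS6KD. Atf3+/+FS6KD replicate 3 lay among the knockout hearts and the others below them. Its log2 fold change was 0.25 (SE 0.12, 95% confidence interval -0.03 to 0.54, edgeR adjusted p 0.531), and it was 0.13 without Atf3-/-FS6KD replicate 2 and 0.09 within the deeper libraries.

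Among the AAV hearts Dcn was at 1130, 1250 and 920 CPM in libraries labelled shCtrl and at 853, 935 and 776 CPM in those labelled shAtf3. The lowest library labelled shCtrl fell below the highest labelled shAtf3, so the groups overlapped. The mean was 1.29-fold lower, a log2 fold change of -0.37 (SE 0.11).

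Bgn encodes biglycan, a close relative of decorin whose soluble form signals through Toll-like receptors. In the knockout experiment it was at 378, 359, 685 and 421 CPM in Atf3+/+FS6KD and at 427, 625, 600 and 388 CPM in Atf3-/-FS6KD. The highest value of all belonged to Atf3+/+FS6KD replicate 3, and the groups overlapped widely. Its log2 fold change was 0.15 (SE 0.23, 95% confidence interval -0.37 to 0.66, edgeR adjusted p 0.858), and it turned to -0.16 within the deeper libraries against 0.52 within the shallower ones. Leaving out 1 library moved it to between 0.03, without Atf3-/-FS6KD replicate 2, and 0.40, without Atf3+/+FS6KD replicate 3.

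Bgn was at 823, 803 and 554 CPM in libraries labelled shCtrl and at 487, 496 and 475 CPM in those labelled shAtf3. All libraries labelled shAtf3 were low and close to each other, and those labelled shCtrl lay above them. The means were 727 ± 150 and 486 ± 10.1 CPM (SD, n = 3), a log2 fold change of -0.58 (SE 0.13).

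Aspn encodes asporin, a class I protein that lacks the glycosaminoglycan attachment site of its relatives and binds collagen and transforming growth factor β. It was at 41.2, 39.2, 51.1 and 42.6 CPM in Atf3+/+FS6KD and at 44.9, 61.7, 65.3 and 47.7 CPM in Atf3-/-FS6KD. Only replicate 3 of Atf3+/+FS6KD reached into the range of the knockout hearts. Its log2 fold change was 0.33 (SE 0.14, 95% confidence interval 0.03 to 0.64), with an unadjusted p of 0.0349 and an edgeR adjusted p of 0.459.

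Among the AAV hearts Aspn was at 77.4, 59.4 and 63.5 CPM in libraries labelled shCtrl and at 48.1, 46.7 and 47.5 CPM in those labelled shAtf3. The groups lay apart, and the libraries labelled shAtf3 differed from each other by very little. The log2 fold change was -0.49 (SE 0.09) was fitted.

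Among the class II members other than Fmod, Lum encodes lumican, which competes with fibromodulin for a site on collagen I and is best known from the cornea. Lum was at 120, 145, 157 and 133 CPM in Atf3+/+FS6KD and at 141, 186, 181 and 159 CPM in Atf3-/-FS6KD. The lowest knockout heart lay below Atf3+/+FS6KD replicates 2 and 3, and the other knockout hearts lay above all Atf3+/+FS6KD hearts. Its log2 fold change was 0.27 (SE 0.11, 95% confidence interval 0.02 to 0.51), with an unadjusted p of 0.035 and an edgeR adjusted p of 0.459. Across all 17 alternative fits it ranged from 0.20 to 0.34, the narrowest range of the 9 members.

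Lum was at 192, 177 and 171 CPM in libraries labelled shCtrl and at 149, 142 and 132 CPM in those labelled shAtf3. The groups lay apart. The means were 180 ± 10.5 and 141 ± 8.82 CPM (SD, n = 3), a log2 fold change of -0.35 (SE 0.07).

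Prelp encodes prolargin, whose basic amino terminus binds heparan sulfate and which links basement membranes to collagen. It was at 82.3, 79.8, 118 and 84.0 CPM in Atf3+/+FS6KD and at 78.4, 116, 117 and 86.6 CPM in Atf3-/-FS6KD. Replicate 3 of Atf3+/+FS6KD stood with knockout replicates 2 and 3, and the other hearts of both groups were alike in level. A log2 fold change of 0.13 was fitted (SE 0.17, 95% confidence interval -0.25 to 0.50, edgeR adjusted p 0.821). Leaving out replicate 3 of the controls gave 0.28, leaving out replicate 3 of the knockout hearts gave 0.04, and the deeper libraries alone gave 0.01. AAV libraries ranged from 89.9 to 147 CPM in libraries labelled shCtrl and 75.6 to 92.3 CPM in those labelled shAtf3, with a log2 fold change of -0.52 (SE 0.16) that was -0.33 without the library labelled shCtrl replicate 2.

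Omd encodes osteomodulin, a keratan sulfate protein of mineralised tissue, and was the lowest member. It ranged from 2.24 to 5.83 CPM in Atf3+/+FS6KD and from 3.83 to 4.88 CPM in Atf3-/-FS6KD, and the values of the knockout hearts lay inside those of the controls. The log2 fold change was 0.19 (SE 0.26, 95% confidence interval -0.39 to 0.77, edgeR adjusted p 0.826), and it was -0.20 within the deeper and 0.75 within the shallower libraries. Leaving out 1 library moved it to between 0.03, without Atf3+/+FS6KD replicate 2, and 0.52, without Atf3+/+FS6KD replicate 3. AAV libraries ranged from 2.66 to 4.74 CPM in libraries labelled shCtrl and 2.31 to 3.30 CPM in those labelled shAtf3, and the log2 fold change was -0.39 (SE 0.23). Leaving out shCtrl replicate 2 by label gave -0.12.

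Counts of Omd were not whole in 14 of 14 libraries, those of Aspn in 6 and those of Ogn in 2, whereas the other members held whole counts in all 14. Aspn, Omd and Ogn lie next to each other on chromosome 13, separated by 14.9 and 15.2 kb, and Ecm2 lies 11.7 kb from Aspn. All 4 genes sit inside the span of Cenpp, a kinetochore gene on the opposite strand, and none of them overlaps a Cenpp exon in the annotation. Dcn and Lum are neighbours on chromosome 10 with a gap of 47.0 kb.

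Ogn encodes osteoglycin, a class III member that is also called mimecan and has been linked to left ventricular mass. It was at 182, 167, 222 and 191 CPM in Atf3+/+FS6KD and at 208, 259, 225 and 201 CPM in Atf3-/-FS6KD. Again only Atf3+/+FS6KD replicate 3 reached into the range of the knockout hearts. The log2 fold change was 0.23 (SE 0.11, 95% confidence interval -0.01 to 0.47, edgeR adjusted p 0.51), and it was 0.15 without Atf3-/-FS6KD replicate 2 and 0.04 within the deeper libraries.

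AAV libraries gave Ogn levels of 202, 246 and 198 CPM where labelled shCtrl and of 164, 171 and 171 CPM where labelled shAtf3. The groups lay apart, with a small spread in the libraries labelled shAtf3, and the fitted log2 fold change was -0.35 (SE 0.08).

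Podn encodes podocan, a class V member described in kidney podocytes and in vascular smooth muscle, where it restrains proliferation. It was at 11, 18.9, 13.2 and 14.7 CPM in Atf3+/+FS6KD and at 10.6, 13.3, 14.8 and 10.8 CPM in Atf3-/-FS6KD. The groups overlapped and the log2 fold change was -0.22 (SE 0.17, 95% confidence interval -0.61 to 0.17, edgeR adjusted p 0.684), between -0.33 without Atf3+/+FS6KD replicate 1 and -0.07 without Atf3+/+FS6KD replicate 2. Podn was at 13.8, 22.1 and 20.8 CPM in libraries labelled shCtrl and at 22.4, 17.6 and 16.3 CPM in those labelled shAtf3. The means were 18.9 ± 4.46 and 18.8 ± 3.23 CPM (SD, n = 3), a log2 fold change of -0.01 (SE 0.18).

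**Figure D2:**
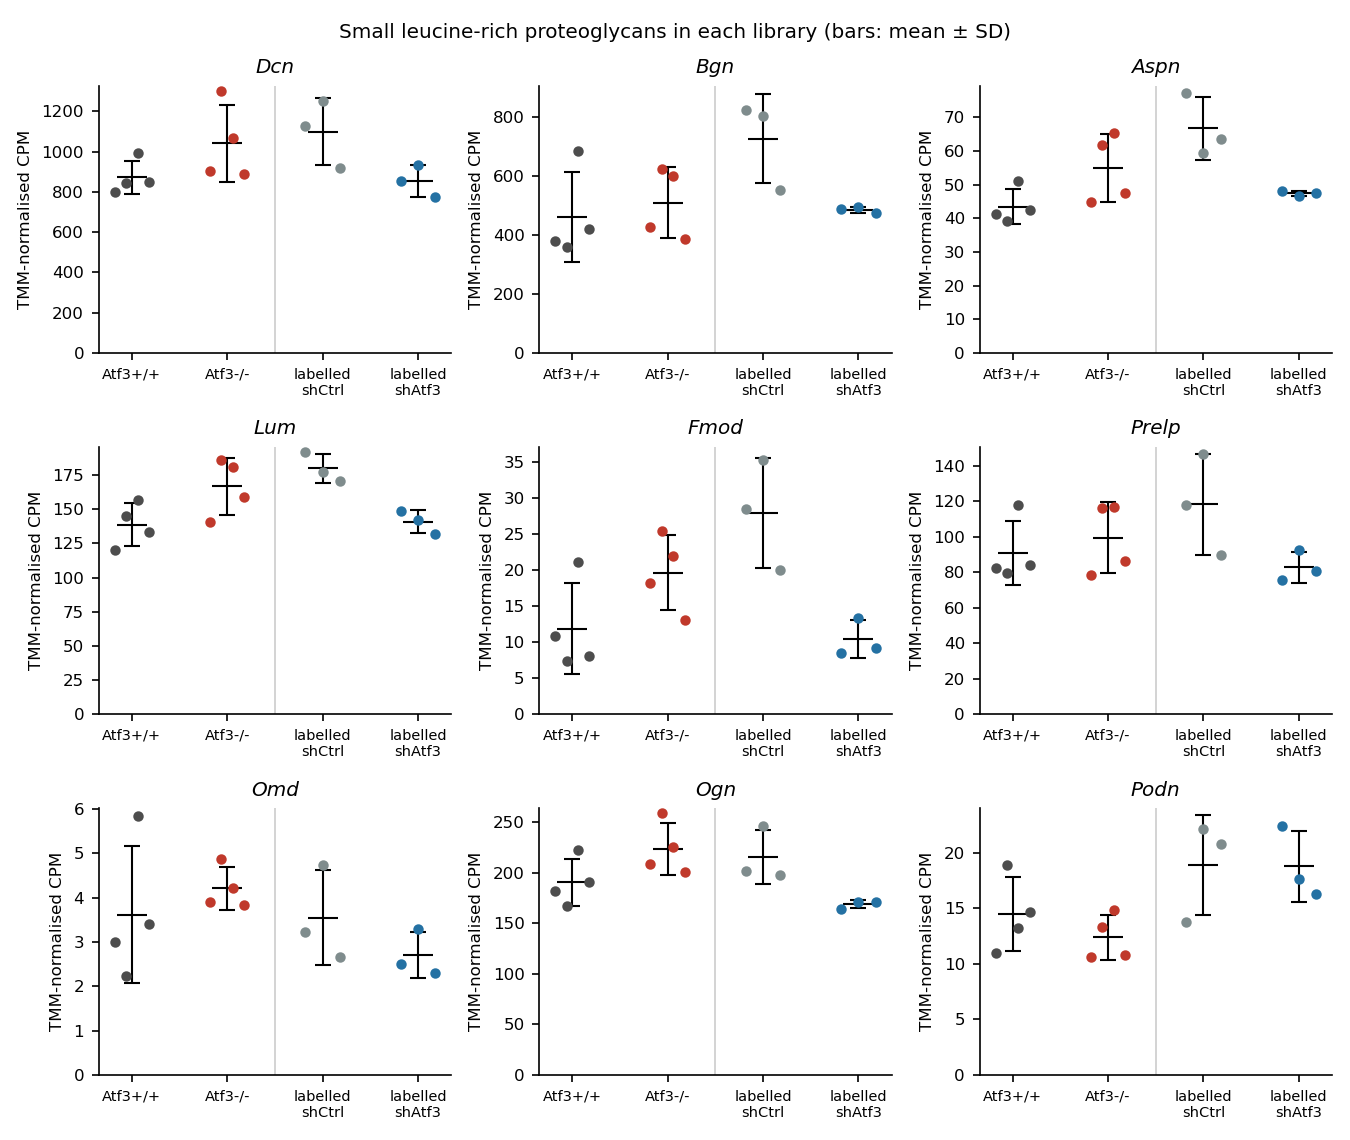
TMM-normalised CPM of each member (vertical axis, linear from 0) in the 14 libraries, by group on the horizontal axis, with mean ± SD and a grey line between the experiments, which were normalised separately. Fmod separates the libraries labelled shCtrl (20 to 35.3 CPM) from those labelled shAtf3 (8.52 to 13.4 CPM), and in Atf3+/+FS6KD a single library reaches 21.1 CPM. Podn shows no such separation.

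A single control heart recurred across the family. Atf3+/+FS6KD replicate 3 had the highest level of its group for 8 of 9 members, all but Podn. Among Atf3-/-FS6KD hearts, replicate 2 was highest for 6 members and replicate 4 lowest for 5. Among libraries labelled shCtrl, replicate 3 was lowest for 7 members. Without Atf3+/+FS6KD replicate 3 the members' median log2 fold change in the knockout comparison was 0.33, whereas leaving out Atf3-/-FS6KD replicate 2 gave 0.13. The median was 0.04 within the deeper libraries and 0.42 within the shallower libraries, with 0 members called by edgeR in each case.

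To compare levels between genes, CPM were divided by the length of the merged exons in kb. The experiments were normalised separately, so the order is read within a group. Dcn led in every group, at 450 ± 42.7 CPM per kb in Atf3+/+FS6KD, 537 ± 98.0 in Atf3-/-FS6KD, 568 ± 86.1 in libraries labelled shCtrl and 441 ± 41.1 in those labelled shAtf3. Bgn came next in each group, with group means of 190 to 300 CPM per kb, followed by Ogn (65.7 to 86.9) and Lum (56.6 to 73.5). Prelp (22.9 to 32.7) and Aspn (18.5 to 28.4) stood below them, and Fmod, Podn and Omd formed the low end. Among these the order of Fmod and Podn was not the same in all groups. Podn was above Fmod in Atf3+/+FS6KD (4.48 against 3.80 CPM per kb) and in libraries labelled shAtf3 (5.81 against 3.33), whereas Fmod was above Podn in Atf3-/-FS6KD (6.29 against 3.83) and in libraries labelled shCtrl (8.96 against 5.85).

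Some neighbours in this order did not differ beyond their spread over libraries. These were Podn and Fmod as well as Fmod and Omd in Atf3+/+FS6KD, and Prelp and Aspn as well as Fmod and Podn in Atf3-/-FS6KD. In libraries labelled shCtrl they were Ogn and Lum, Prelp and Aspn, and Fmod and Podn. No neighbours overlapped in libraries labelled shAtf3.

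**Figure D3:**
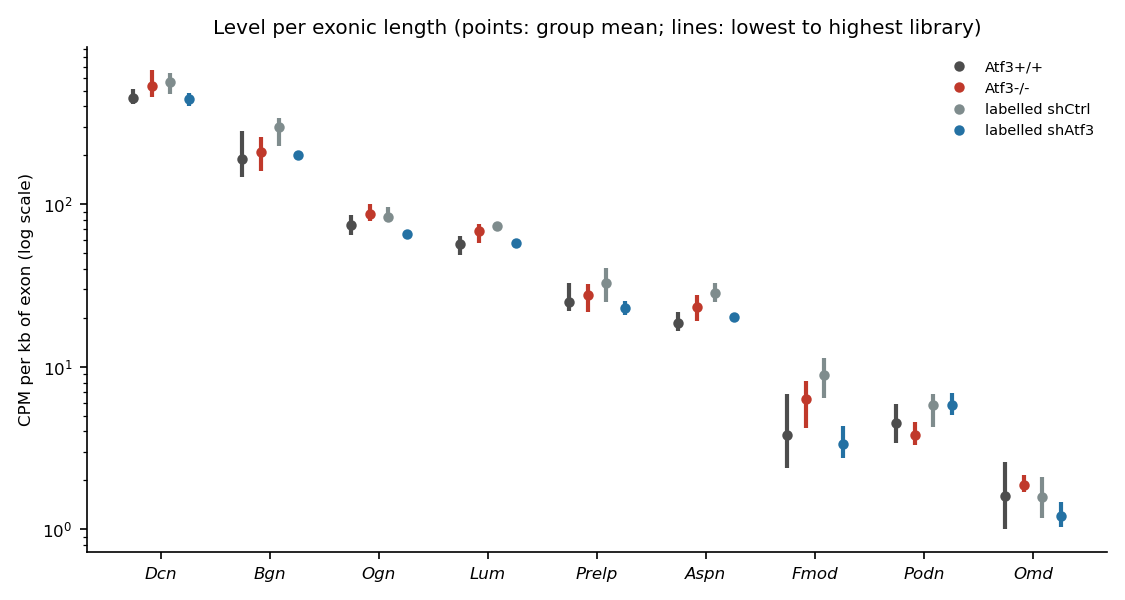
CPM per kb of exon (vertical axis, log scale) of the 9 members in the 4 groups, as group mean (points) with the lowest to highest library (lines). Levels run from 568 CPM per kb for Dcn in libraries labelled shCtrl to 1.20 CPM per kb for Omd in those labelled shAtf3, and Fmod and Podn exchange places between groups.

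The mRNA ratio of Fmod to Dcn was compared between libraries, since it does not depend on scaling. Fmod per 1000 CPM of Dcn was 25.2, 28.2 and 21.8 in libraries labelled shCtrl, and it was 9.99, 14.4 and 11.9 in those labelled shAtf3. These AAV ratios rest on the values that chose the family and are a description only. The ratio was 13.5, 8.75, 21.3 and 9.44 in Atf3+/+FS6KD and 20.1, 19.5, 20.5 and 14.7 in Atf3-/-FS6KD. As for the level itself, Atf3+/+FS6KD replicate 3 lay with the knockout hearts. A ratio within a library shows unequal levels and not which gene differed.

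Marker genes of the cell types in the tissue were set beside the family, with 0 markers called by edgeR in any list of the knockout comparison. Over 7 of 7 fibroblast markers (Pdgfra, Tcf21, Ddr2, Dpt, Dpep1, Pi16 and Meox1) the log2 fold change was above 0 in the knockout comparison, with 2 lying higher without overlap (3.08% of all genes), a median of 0.33 and sums of 338 to 400 against 398 to 475 CPM. All 7 were below 0 in the AAV experiment and 6 lay lower without overlap (9.94% of all genes), with a median of -0.47 and sums of 409 to 525 CPM in libraries labelled shCtrl and 328 to 363 CPM in those labelled shAtf3. No marker was at 0. In tissue RNA, fewer cells of a type and less RNA per cell cannot be told apart, and the part of fibroblast content in the members' values was not tested.

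Cardiomyocyte markers (Myh6, Tnnt2, Tnni3, Actn2, Ryr2 and Pln) lay on the other side of 0. In the knockout comparison 6 of 6 were below 0 and 2 of them, Tnnt2 and Actn2, lay lower without overlap (2.63% of all genes), with a median of -0.16 and sums of 43400 to 55400 CPM in the controls and 34600 to 47600 CPM in the knockout hearts. In the AAV experiment 6 of 6 were above 0 and all overlapped, with a median of 0.10 and sums of 36600 to 43800 against 40400 to 44000 CPM. The part of cardiomyocyte RNA in the members' values was not tested.

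The summed CPM of the 9 members per CPM of fibroblast markers was 5.40, 5.22 and 4.99 in libraries labelled shCtrl, against 5.51, 5.28 and 5.01 in those labelled shAtf3. For Fmod alone, CPM per 100 CPM of fibroblast markers were 5.94, 6.71 and 4.90 in libraries labelled shCtrl, against 2.59, 3.71 and 2.71 in those labelled shAtf3. The AAV ratios come from the contrast that chose the family, and nothing is read from their difference. In the knockout experiment the ratio of the whole family was 4.81, 4.92, 5.66 and 5.10 in Atf3+/+FS6KD, against 4.40, 5.61, 4.84 and 4.52 in Atf3-/-FS6KD, and the groups overlapped. The Fmod ratio in the same hearts was 3.21, 2.19, 5.28 and 2.34 in Atf3+/+FS6KD and 4.35, 5.49, 4.61 and 3.28 in Atf3-/-FS6KD, with Atf3+/+FS6KD replicate 3 again among the knockout hearts.

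**Figure D4:**
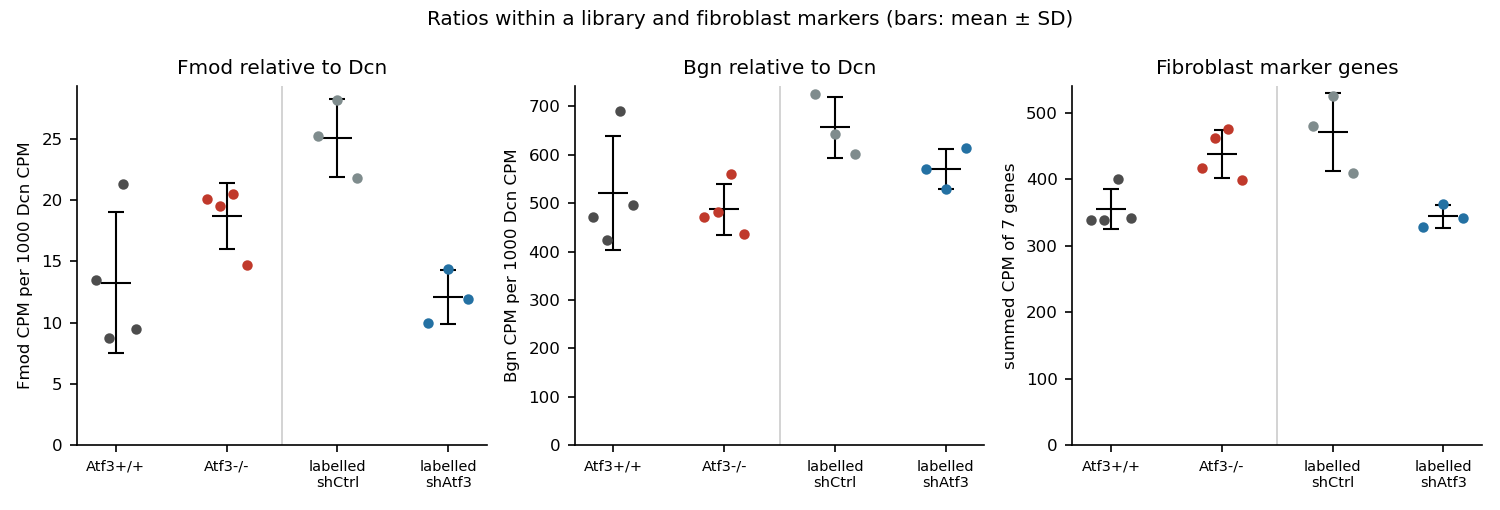
Ratios within each library for Fmod and Bgn (CPM per 1000 CPM of Dcn, left and middle) and the summed CPM of 7 fibroblast markers (right), all on linear axes from 0 with mean ± SD by group. The Fmod ratio lies between 21.8 and 28.2 in libraries labelled shCtrl and between 9.99 and 14.4 in those labelled shAtf3, and fibroblast markers sum to 409 to 525 and 328 to 363 CPM in the same groups.

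Activated fibroblast markers (Postn, Cilp, Thbs4, Comp, Cthrc1 and Acta2) were below 0 for 6 of 6 genes in the AAV experiment, with 5 lower without overlap (9.94% of all genes), sums of 550 to 976 against 350 to 414 CPM and a median log2 fold change of -1.23. In the knockout experiment 5 of 6 were above 0 and 1, Cthrc1, lay higher without overlap (3.08% of all genes), with a median of 0.52 and sums that overlapped (325 to 541 against 262 to 535 CPM). Of the valve and tendon markers 3 of 6 could be tested. All 3 were above 0 in the knockout comparison (median 0.36) and overlapped. All 3 were below 0 in the AAV experiment (median -0.32), where 1, Tnmd, lay lower without overlap (9.94% of all genes). The list summed to 5.35 to 10.8 CPM in Atf3+/+FS6KD, 9.80 to 14.4 CPM in Atf3-/-FS6KD, 10.5 to 12 CPM in libraries labelled shCtrl and 8.21 to 9.02 CPM in those labelled shAtf3. Macrophage markers were above 0 for 6 of 6 genes in the knockout comparison (median 0.29) and below 0 for 6 of 6 in the AAV experiment (median -0.19), where 3 lay lower without overlap (9.94% of all genes). They summed to 159 to 207 and 173 to 262 CPM in the knockout experiment, and to 253 to 273 and 226 to 235 CPM in the AAV experiment. In the knockout comparison 5 of 5 endothelial markers (median 0.10) and 4 of 4 mural markers (median 0.14) were also above 0. In the AAV experiment 3 of 5 endothelial and 2 of 4 mural markers were above 0, both with a median of 0.01. Endothelial markers summed to 551 to 675 CPM and mural markers to 918 to 1220 CPM over all libraries with overlap between the groups of each experiment. Of the 6 epicardial markers, 1 could be tested in the knockout comparison (log2 fold change 0.33, sums of 3.51 to 4.55 against 3.87 to 6.95 CPM). With the AAV, 2 of 3 tested epicardial markers were above 0 and all 3 overlapped, with a median of 2.50. The epicardial list summed to 5.23, 5.36 and 3.34 CPM in libraries labelled shCtrl and to 3.4, 9.95 and 4.82 CPM in those labelled shAtf3. The highest sum was that of 1 library, labelled shAtf3 replicate 2. Genes this low can pass the filter through 1 library, so nothing is read from this median. The part of these cell types in the members' values was not tested.

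The members also varied together among hearts of 1 group. Log2 CPM were centred on the mean of each group, and the 14 libraries were correlated as a description, with no p, since the points share libraries, depth and scaling factors. The 28 pairs without Podn gave Pearson r of 0.39 to 0.89 with a median of 0.78, and the 8 pairs with Podn gave -0.15 to 0.42 with a median of 0.06. Bgn and Prelp were closest at r = 0.89, and 0.84 without the 2 libraries farthest from the median of Bgn. Fmod and Omd gave 0.88 (0.83 without 2 libraries), and Dcn and Lum, neighbours in the genome, gave 0.73 (0.69). The spread within groups was widest for Fmod (SD 0.50 on the log2 scale), then Omd (0.39) and Bgn (0.33), and narrowest for Lum (0.15) and Ogn (0.15).

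**Figure D5:**
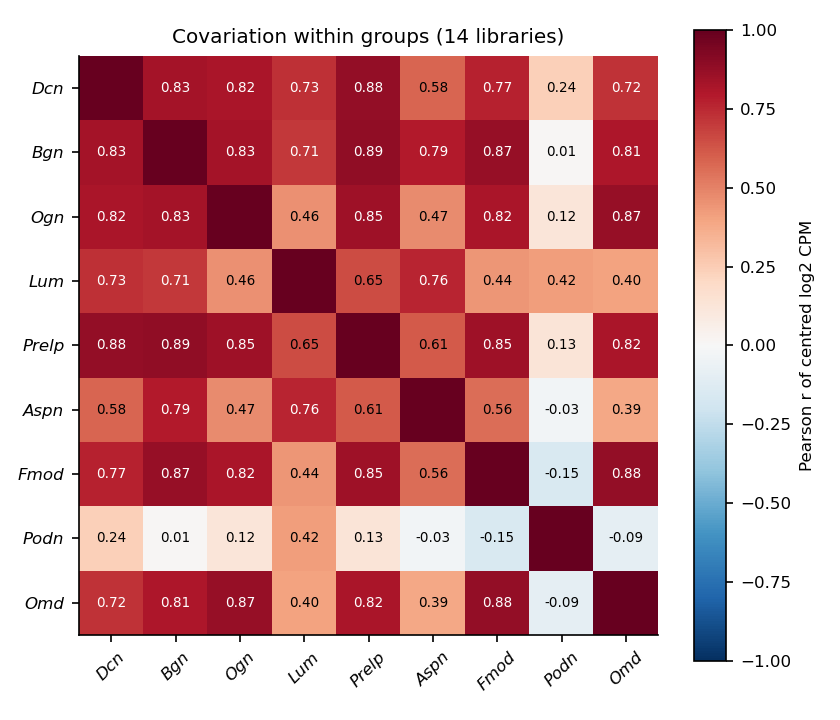
Pearson r between members of log2 CPM centred within each group, over 14 libraries (colour scale from -1 to 1, members on both axes in the order of their level). Pairs among the 8 members other than Podn lie between 0.39 and 0.89, and the row of Podn lies between -0.15 and 0.42.

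By the same measure over 13193 genes, those most like Fmod were Lrrc8a (r = 0.942, Spearman's rho = 0.912), a subunit of volume-regulated anion channels, Svep1 (0.925 and 0.947), an extracellular matrix protein, and Pi16 (0.918 and 0.908), a marker of adventitial fibroblasts that is also in the fibroblast list above. The genes most like the mean of the 9 members were Fgfr1 (r = 0.976, rho = 0.943), a fibroblast growth factor receptor, Itgbl1 (0.963 and 0.930) and Nkain1_1 (0.962 and 0.938). The last is a numbered copy of another symbol in the tables, and its reads are uncertain. These genes were picked for their likeness among many.

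Genes that make, bind or cut SLRPs were described from lists. In the knockout comparison edgeR called 0 genes in each of the 7 lists, as it did over all genes. Fibrillar collagens, the main binding partners, had a log2 fold change above 0 in 7 of 7 tested genes, with 5 at an unadjusted p below 0.05 and a median of 0.55. Over all genes 50.2% were above 0, 10.1% had such a p and the median was 0.000536. Col11a1, among the 7, was near the floor at 0.257 ± 0.261 CPM in the controls and 0.834 ± 0.553 CPM in the knockout hearts. It passed the filter on low values only through the knockout hearts, where it was higher, so its sign is not read. Col3a1, the chain of type III collagen, averaged 326 ± 35.3 CPM in the controls and 535 ± 96.3 CPM in the knockout hearts (SD, n = 4), with a log2 fold change of 0.71 (SE 0.13, edgeR adjusted p 0.248). Col1a2, a chain of type I collagen, gave 0.48 (SE 0.13, edgeR adjusted p 0.344). In the AAV experiment 6 of 6 tested fibrillar collagens were below 0 and 5 lay lower without overlap, beside 50.9% and 9.94% of all genes, with Col3a1 at 580 ± 144 and 280 ± 37.2 CPM (SD, n = 3).

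Proteases that process SLRPs were above 0 for 8 of 10 genes in the knockout comparison, with 4 at an unadjusted p below 0.05 (all genes: 50.2% and 10.1%) and a median of 0.45. Mmp2, a gelatinase, averaged 61.7 ± 1.69 CPM in the controls and 81.2 ± 10.1 CPM in the knockout hearts (SD, n = 4, log2 fold change 0.40, SE 0.09, edgeR adjusted p 0.277). Tll2, a tolloid-like protease, averaged 1 ± 0.569 and 0.378 ± 0.138 CPM, with a log2 fold change of -1.34 and an edgeR adjusted p of 0.392. It was near the floor and passed the filter of 1 CPM only through the controls, where it was higher, so its sign is not read. In the AAV experiment 8 of 9 were below 0 and 4 lay lower without overlap (all genes: 50.9% and 9.94%), Mmp2 among them at 83.8 ± 1.57 and 46.2 ± 7.59 CPM (SD, n = 3).

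Receptors and growth factors that SLRPs bind were above 0 in 13 of 13 genes in the knockout comparison, with 2 at an unadjusted p below 0.05 (all genes: 50.2% and 10.1%) and a median of 0.17. These 2 were Egfr, a decorin receptor (0.42, edgeR adjusted p 0.392), and Tgfb3, a decorin ligand (0.29, edgeR adjusted p 0.487). With the AAV, 11 of 13 lay below 0 and 6 lay lower without overlap (all genes: 50.9% and 9.94%), among them Tgfb3 at 37.6 ± 1.85 and 24.6 ± 2.94 CPM (SD, n = 3).

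Enzymes of chondroitin and dermatan sulfate chains were above 0 in 15 of 20 tested genes of the knockout comparison, with 4 at an unadjusted p below 0.05 (all genes: 50.2% and 10.1%) and a median of 0.073. Fam20b, which phosphorylates the linker of the chain, had a log2 fold change of -0.58 (edgeR adjusted p 0.253), and Dse, the epimerase that makes dermatan sulfate, one of 0.38 (edgeR adjusted p 0.389). Enzymes of keratan sulfate chains were above 0 in 5 of 6 tested genes with a median of 0.091, the genes with the smallest p being Chst2 (0.22, edgeR adjusted p 0.604) and B3gnt2 (0.11, edgeR adjusted p 0.64). The AAV values lay below 0 for 16 of 20 and 5 of 6, with 9 and 2 genes lower without overlap (all genes: 50.9% and 9.94%).

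Of the 10 further SLRP family genes, 5 could be tested in the knockout comparison and 4 were above 0, with a median of 0.23. Ecm2, the neighbour of Aspn, averaged 45.2 ± 2.74 CPM in the controls and 53.2 ± 3.38 CPM in the knockout hearts (SD, n = 4). It lay higher without overlap, as did 3.08% of all genes, and its log2 fold change of 0.23 (SE 0.07, edgeR adjusted p 0.368) did not pass the threshold. Nyx, best known from the retina, was at 0.799 ± 0.129 and 1.18 ± 0.442 CPM (log2 fold change 0.53, edgeR adjusted p 0.548). These levels lie at the filter of 1 CPM, which the control mean did not reach and the knockout mean did. The sign of Nyx is therefore not read, and Nyx was not among the genes tested in the AAV experiment. Other proteoglycan core proteins were above 0 in 9 of 15 tested genes with a median of 0.04, Sdc1 (0.32, edgeR adjusted p 0.433) and Gpc3 (0.36, edgeR adjusted p 0.52) having the smallest p. Of the AAV values, 4 of 4 further SLRP genes and 14 of 15 other proteoglycan genes lay below 0, with 0 and 5 lower without overlap (all genes: 50.9% and 9.94%). Spock2, a testican, was the exception among the latter, higher without overlap in libraries labelled shAtf3 (6.47 ± 0.678 against 8 ± 0.409 CPM, SD, n = 3, log2 fold change 0.31, beside 8.48% of all genes), and it is named after its values were seen.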

How the data were processed

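Gene expression of 14 heart samples was measured by bulk RNA-seq. Total RNA was extracted with a fibrous tissue kit, stranded mRNA libraries were sequenced single-end, and reads were mapped to GRCm38.p6 and counted with featureCounts (2.0.0), per the submitters' processing notes and the study's methods. The aligner is not given in the sources used here, and no mapping is stated for the AAV libraries. The authors deposited 1 estimated count per gene and library, without normalization, and between 19.3% and 24.4% of values per library were not whole. These were rounded and analysed with edgeR (4.0.16) in R (4.3.3): two-sided quasi-likelihood F-tests after TMM scaling of genes above 1 CPM in at least 1 library, adjusted by Benjamini-Hochberg over all genes tested (threshold 0.05), with no covariate and each experiment fitted alone. The study tested normalised values gene by gene.

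Groups follow the GEO titles. The study calls the knockout samples biological replicates. Log2 CPM used a prior count of 2. The genes named were the 9 members, per pathway list the 2 genes with the smallest p, and the 3 genes most like Fmod or the members' mean. The members and lists were chosen with earlier results of these data known. Gene spans and exonic lengths are from the GENCODE annotation (vM21) of GRCm38, promoters from RefSeq. The scripts were tested on simulated data. Alternatives were DESeq2 (1.42.0), limma-trend (3.58.1), library size scaling, other filters, a depth term, depth classes, a replicate block and leaving out each library. The numbers did not pair the samples: same-number correlations of deviations were 0.14, 0.09, 0.01 and 0.13 in the knockout and 0, 0.15 and 0.08 in the AAV experiment.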

Additional observations from a re-analysis of the deposited data

Results flagged for a closer look

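Prelp was at 118 CPM in Atf3+/+FS6KD replicate 3, while the other 3 hearts of that group lay between 79.8 and 84.0 CPM. The gap divided by the range of the group was 0.891, above Dixon's 95% critical value for 4 samples. Of the 18 sets of 4 libraries examined for the members, 1 was flagged, and chance flags about 1 in 20.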

How the results depend on the processing

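In the knockout comparison 0 members were called by edgeR, DESeq2 or limma-trend under any of 17 alternatives, while DESeq2 called 208 genes over all. The direction reversed for Bgn, to -0.16, and for Omd, to -0.20, in the deeper libraries alone, and the cause was not tested. The other members kept the sign of their log2 fold change under all 17. With each library left out in turn, Fmod ranged from 0.55 to 1.16 in the knockout and from -1.65 to -1.23 in the AAV experiment. With a replicate block the members' median was 0.24 in the knockout and -0.37 in the AAV experiment, and the block changed no call. In the AAV experiment 8 members stayed below 0 under all 11 alternatives, and Podn ranged from -0.19 to 0.12. Scaling by library size alone moved the median of all genes to 0.06 in the knockout and -0.04 in the AAV experiment. Leaving out numbered copies was not run, since 0 members have one.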
